A study of Mus musculus with 8 samples.

Results

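The cytochrome P450 genes of the mouse autosomes were followed as DNA copy number in liver tumours of FEAT transgenic mice. The members are all autosomal probes whose gene name on the array begins with Cyp and a digit: 272 probes of 220065, for 67 genes of 24939. They fall into 16 P450 families on 14 chromosomes, with 30 genes in family 2, 11 in family 4 and 6 in family 3. Of these genes, 9 have 1 probe, 58 have at least 2, and Cyp7b1 has the most, 22. Comparative genomic hybridisation on Agilent 244A arrays of probes of up to 60 bases set each liver DNA (Cy3) against a reference DNA (Cy5). Every value is therefore a log2 ratio in which 0 means equal amounts.

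All animals were C57BL/6 males, with 1 array each. The 6 hepatocellular carcinomas (HCC) came from FEAT transgenic mice of 16, 21, 20, 18.5, 22 and 12 months (tumours 1 to 6), of which tumour 1 lay in the right and left lobes and tumour 4 came with a lung metastasis. Normal liver of a FEAT transgenic mouse of 13 months and of a wild-type mouse of 6 months gave 1 array each, and the reference was liver DNA of a wild-type mouse of 6 months, which the labels do not tie to any array. FEAT is an older name of the methyltransferase gene Mettl13; no source used here names the promoter of the transgene. Age and genotype of the wild-type mouse cannot be told apart. Where tumours are set against both non-tumour livers together, tumour state is also mixed with the age and genotype of that mouse. A tumour sample can also hold DNA of other cells, so that the size of a ratio is not a number of copies. Noise between neighbouring probes had an SD of 0.22 to 0.49 on the log2 scale, highest in tumour 4.

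P450 enzymes are heme proteins of the endoplasmic reticulum and mitochondria that insert oxygen into drugs, toxins, steroids, bile acids, fatty acids and vitamins. Liver holds more P450 protein than any other organ. The drug-metabolising subfamilies arose by repeated tandem duplication, so that mouse Cyp2, Cyp3a and Cyp4 genes lie in clusters of close copies, where unequal crossing-over can change copy number. The study asked whether copy number changes of human HCC recur in tumours of FEAT mice. For P450 genes the array can show change on the scale of a chromosome or of a gene: a gene can be carried along by its chromosome, or a gene or cluster can differ from the DNA beside it. The level of a gene is the mean of its probes after the autosomal median of that array was taken off, and its net value is the level minus the median of the 200 nearest probes that are not P450 probes, 100 on each side.

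Some of the probes on which the values turn are shown here, with the longest run of A and T letters in capitals. Probes to Cyp4f14, Cyp1a1, Cyp3a16 and Cyp4a14 belong to genes with an unadjusted p under 0.05 between groups of livers, those to Cyp2a4 and Cyp2a5 contrast neighbouring genes, and those to Cyp2e1 and Cyp2c54 contrast neighbouring positions of 1 gene. Sequences and positions are those of the array. No source used here names its genome build, so that exons and introns were not assigned.
Cyp4f14, chr17:31110831-31110890: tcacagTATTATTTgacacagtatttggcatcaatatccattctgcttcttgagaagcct
Cyp4f14, chr17:31116312-31116365: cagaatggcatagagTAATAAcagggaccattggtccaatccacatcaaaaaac
Cyp1a1, chr9:57726835-57726894: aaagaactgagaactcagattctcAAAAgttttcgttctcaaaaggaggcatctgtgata
Cyp3a16, chr5:144493058-144493117: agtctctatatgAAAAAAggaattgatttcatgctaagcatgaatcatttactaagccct
Cyp4a14, chr4:114862633-114862692: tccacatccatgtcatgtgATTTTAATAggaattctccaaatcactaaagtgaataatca
Cyp2a4, chr7:23204825-23204884: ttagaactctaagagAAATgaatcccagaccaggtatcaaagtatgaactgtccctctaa
Cyp2a5, chr7:23212343-23212402: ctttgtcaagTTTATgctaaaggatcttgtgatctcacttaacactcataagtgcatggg
Cyp2e1, chr7:137181255-137181314: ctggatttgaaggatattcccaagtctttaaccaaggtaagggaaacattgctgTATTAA
Cyp2e1, chr7:137187324-137187383: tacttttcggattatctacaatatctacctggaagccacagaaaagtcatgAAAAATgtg
Cyp2c54, chr19:39985076-39985135: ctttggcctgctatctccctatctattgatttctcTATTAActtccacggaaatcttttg
Cyp2c54, chr19:39990738-39990797: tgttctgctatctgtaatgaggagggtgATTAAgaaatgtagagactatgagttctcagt
No pair of the 272 P450 probes shared a stretch of 20 bases, close copies included. Of the 272 probes, 257 had a value on all 8 arrays. The probe to Cyp26a1 and the last probe to Cyp1a1 hold 16 G or C letters each, against 23 in the probes to Cyp2a4 and Cyp2a5.

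Chromosome-scale change reached P450 genes in tumours 1, 4 and 5. Chromosomes were divided into segments of even level, and a gene was called gained or lost where at least 50% of its probes lay in a segment at or beyond 0.2. Tumour 5 had 17 of the 67 P450 genes lost (25.4%, against 13.9% of all autosomal genes) and 3 gained (4.48%, against 11.6%). Tumour 1 had 6 gained (8.96%, against 4.13%) and 1 lost (1.49%, against 10.3%). Tumour 4 had 8 gained (11.9%, against 4.61%) and 0 lost (against 1.05%). No P450 gene was called in tumours 2, 3 and 6 or in either non-tumour liver, where few genes of any kind were. Tumours 2, 3 and 6 had 0.0241%, 0.00401% and 0.016% of all genes gained, and 0.0321%, 0.0361% and 0.0521% lost. The normal FEAT liver had 0.00401% gained and 0.0561% lost, and the wild-type liver 0.0521% gained and 0.00802% lost. Genes that share a segment are not independent, so these counts were not tested. Some of these shares changed order with the segment settings. In tumour 1, 17.9% of P450 genes against 13.9% of all were lost at a threshold of 0.1. At a threshold of 0.3, gains were 0.0% against 1.99% in tumour 1 and 0.0% against 0.0722% in tumour 4. In tumour 4, 14.9% against 19.6% were gained at 0.1, and 14.9% against 17.7% with each array centred on its mode. Gains in tumour 4 were 0.0% against 0.822% with a penalty factor for segment borders of 4 in place of 2. They were 1.49% against 4.36% after correction for the GC of probes, and 0.0% against 2.23% for the GC of the surrounding DNA. In tumour 5, 35.8% against 23.3% were gained at 0.1, and 16.4% against 16.3% with the mode. Under that penalty and under each GC correction they were 13.4% against 12.4%, and after correction for probe brightness 11.9% against 10.9%. Losses in tumour 5 were 35.8% against 34.4% at 0.1 and 1.49% against 1.4% at 0.3.

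**Figure D1:**
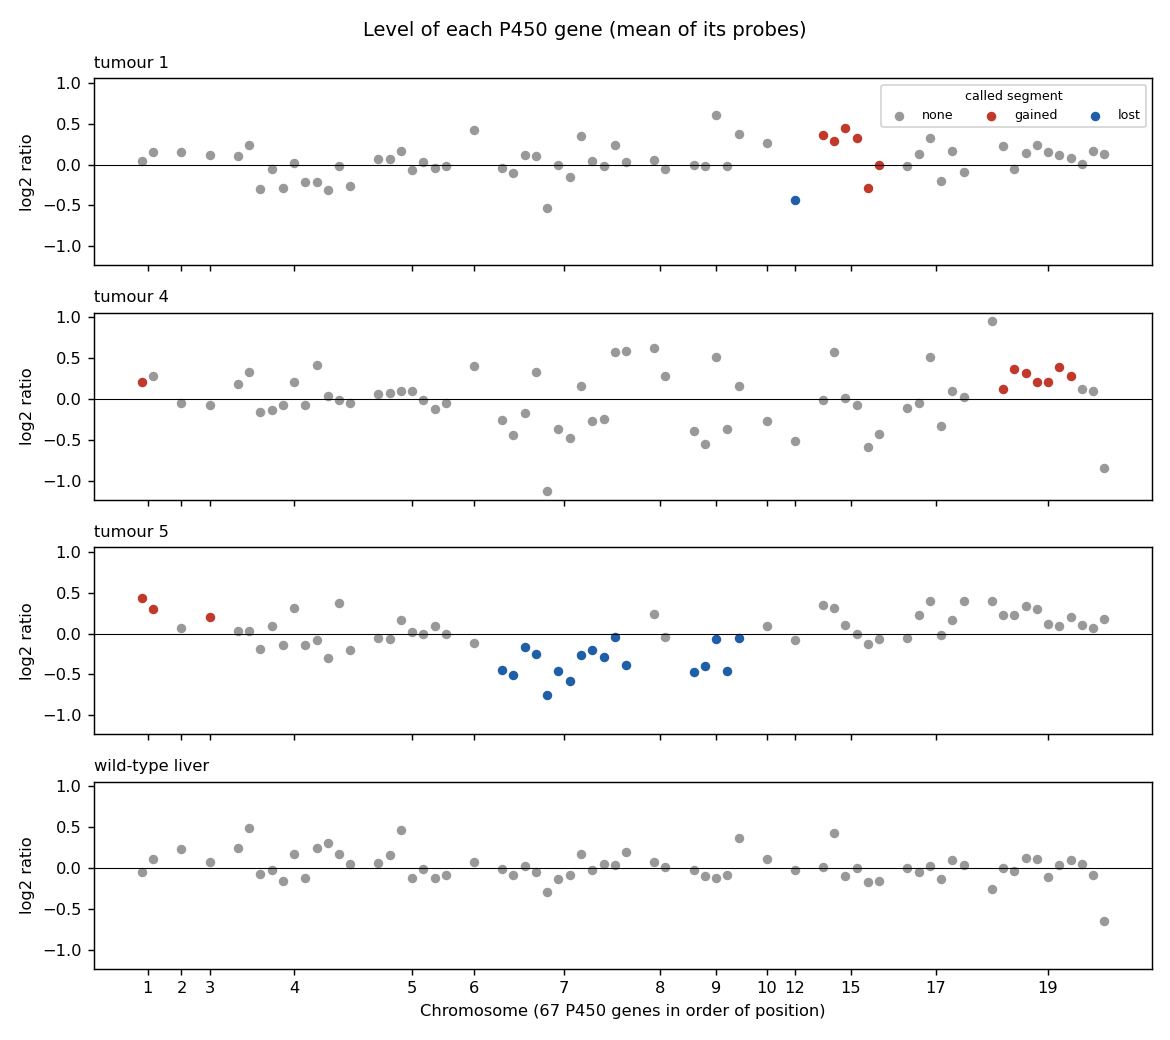
Level (log2 ratio, vertical axis) of each of the 67 P450 genes in order of position along 14 chromosomes, in tumours 1, 4 and 5 and the wild-type liver. Coloured points are genes in a segment called gained or lost, of which there are 7 in tumour 1, 8 in tumour 4 and 20 in tumour 5; the wild-type liver has none.

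The 17 losses of tumour 5 lay on chromosomes 7 and 9 in 5 segments. The largest group was the cluster of 10 Cyp2a, Cyp2b, Cyp2f, Cyp2g and Cyp2s genes, which hydroxylate steroids and small drugs and whose Cyp2b10 is the classic phenobarbital-induced gene. It lay whole in a segment of 34.3 Mb with a mean of -0.28 (chr7:12569484-46911191). Farther along chromosome 7, Cyp2r1, the vitamin D hydroxylase of liver, lay in a segment of 61.9 Mb at -0.25. Cyp2e1, which oxidises ethanol and acetaminophen, lay in one of 16.0 Mb at -0.27. On chromosome 9, the dioxin-inducible pair Cyp1a1 and Cyp1a2, the steroid side-chain enzyme Cyp11a1 and the aromatase Cyp19a1 shared a segment of 48.7 Mb at -0.30. Cyp8b1, which sets the share of cholic acid among bile acids, lay in a segment of 13.5 Mb at -0.30.

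The segments over the P450 genes gained in tumour 5 were also long. Cyp20a1, a P450 without a settled substrate, lay in 69.4 Mb of chromosome 1 at 0.33, and the sterol enzyme Cyp27a1 in the next 21.4 Mb at 0.30. Cyp7b1, an oxysterol enzyme of bile acid synthesis, lay in 84.1 Mb of chromosome 3 at 0.21. In tumour 1, all 4 Cyp2d genes and the corticosteroid genes Cyp11b1 and Cyp11b2 shared 13.7 Mb of chromosome 15 at 0.26, and the cholesterol hydroxylase Cyp46a1 was lost with 15.2 Mb of chromosome 12 at -0.26. In tumour 4, Cyp20a1 was gained with 70.2 Mb of chromosome 1 at 0.21. Calls follow the segment, not the level of the gene itself. In tumour 1, the genes called gained had levels of 0.36 (Cyp11b1), 0.29 (Cyp11b2), 0.32 (Cyp2d10), 0.45 (Cyp2d22), 0.0 (Cyp2d26) and -0.29 (Cyp2d9). Genes called lost in tumour 5 all had levels below 0, from -0.75 (Cyp2a4) to -0.038 (Cyp2r1).

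In 2 examples of long segments, the flanks were set beside the P450 cluster. The chromosome 7 cluster stood at a level of -0.33 in tumour 5, with its flanks at -0.32 and a net value of -0.008. The Cyp2d cluster of tumour 1 had flanks at 0.26, a level of 0.14 and a net value of -0.12. Net values were therefore used to ask whether P450 genes departed from the DNA beside them.

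The 7 clusters of at least 3 genes, joined over gaps of at most 1 Mb, hold 41 of the 67 genes. In none did the difference in net value between the 6 tumours and the 2 non-tumour livers pass the test after adjustment over the 7 clusters (two-sided exact permutation test over 28 splits, whose smallest possible p is 0.036; lowest adjusted p = 0.25). With 7 clusters and this smallest p, no single cluster could have passed 0.05 alone.

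**Figure D2:**
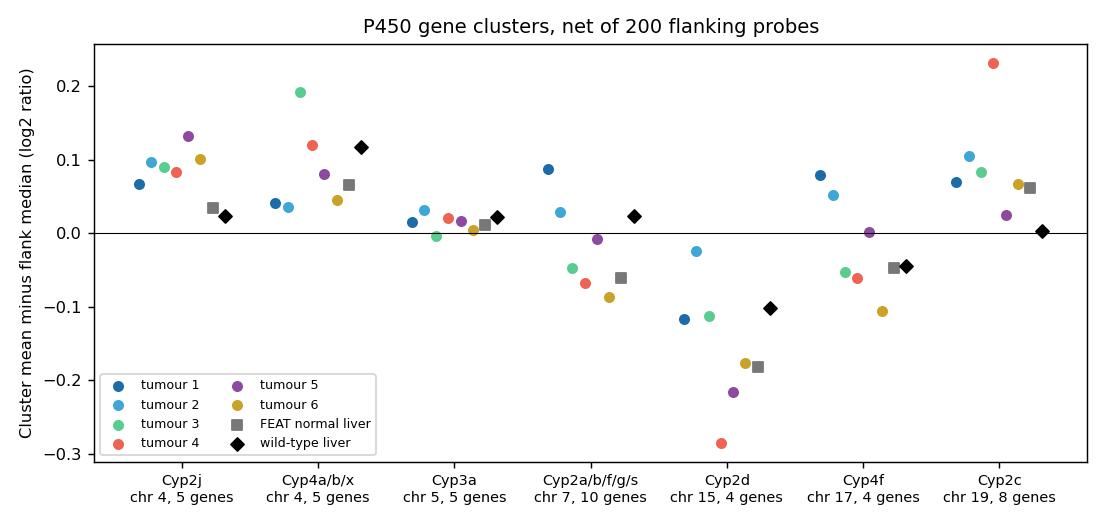
Net value (log2 ratio of the cluster mean minus the median of 200 flanking probes) of the 7 P450 clusters on all 8 arrays: coloured circles are tumours 1 to 6, squares the normal FEAT liver and diamonds the wild-type liver. Cyp2j is the cluster in which all 6 tumours lie above both non-tumour livers, Cyp2d lies below 0 on all 8 arrays, and the highest point is Cyp2c in tumour 4 at 0.23.

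The Cyp2j genes, epoxygenases of arachidonic acid, lie on chromosome 4 (5 genes, 23 probes, chr4:95439667-96049337). Their net value was 0.067, 0.097, 0.091, 0.083, 0.13 and 0.10 in tumours 1 to 6, 0.034 in normal FEAT liver and 0.024 in wild-type liver. All 6 tumours lay above both non-tumour livers, with a tumour mean of 0.095 ± 0.022 (SD, n = 6) and a difference of 0.066 (exact permutation p = 0.036, adjusted p = 0.25). A dim Cyp2j5 probe bore on this: it had values of 0.59, 1.13, 0.75 and 0.75 in tumours 2, 3, 5 and 6 and none on the other 4 arrays. With the 257 probes measured on all arrays, all 6 tumours still lay above both livers, at 0.053, 0.070, 0.054, 0.11, 0.066 and 0.057 in tumours 1 to 6, 0.036 in normal FEAT liver and 0.019 in wild-type liver, but the difference was 0.041 (exact permutation p = 0.0714, adjusted p = 0.5). With the median of the probes in place of the mean it was -0.04.

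Single Cyp2j genes spanned a wider range of net values than the cluster as a whole. Cyp2j13 lay above its flanks on every array, at 0.43, 0.23, 0.60, 0.41, 0.17 and 0.36 in tumours 1 to 6, 0.42 in normal FEAT liver and 0.47 in wild-type liver. Cyp2j5 had 0.20, 0.33, 0.43, 0.30, 0.45 and 0.45 in tumours 1 to 6, 0.42 in normal FEAT liver and 0.16 in wild-type liver. Cyp2j11 lay below on every array, at -0.11, -0.11, -0.11, -0.10, -0.044 and -0.11 in tumours 1 to 6, -0.31 in normal FEAT liver and -0.087 in wild-type liver. Tumour and non-tumour values overlapped in all 3, and the wild-type liver, hybridised against liver DNA of its own strain, lay among the tumours for Cyp2j13.

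The Cyp2c genes, which metabolise drugs and arachidonic acid, form the cluster with the most probes (chromosome 19, 8 genes, 54 probes, chr19:38780584-40080909). Net values were 0.070, 0.11, 0.084, 0.23, 0.025 and 0.067 in tumours 1 to 6, 0.062 in normal FEAT liver and 0.003 in wild-type liver, and tumour 4 stood highest. The tumour mean was 0.097 ± 0.071 (SD, n = 6), and 5 of 6 tumours lay above both non-tumour livers, the difference of 0.065 not passing the test (exact permutation p = 0.25, adjusted p = 0.875). It was 0.038 without tumour 4 and 0.035 without the wild-type liver. The 40 other probes inside the same span had net values of 0.11, 0.097, 0.066, 0.19, 0.069 and 0.094 in tumours 1 to 6, 0.10 in normal FEAT liver and 0.038 in wild-type liver, so probes between the genes read above the flanks too.

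At a penalty factor of 2 and with no correction, tumour 4 held the one segment border found inside a P450 cluster on any array. At a factor of 1, Cyp2j11 alone of the Cyp2j genes was called lost in the normal FEAT liver. A segment of 1.57 Mb with a mean of 0.29 (chr19:38418791-39985135) covered 7 Cyp2c genes, from Cyp2c55 through most of Cyp2c54, and also Hells, Noc3l, Plce1 and Tbc1d12, and left out Cyp2c70. The Cyp2c54 probes printed above lie on either side of its end, a border that was itself fitted to the values of tumour 4. In tumour 4 the inner one read 0.59 and the outer one -0.62. The same pair stood at 0.20 and -0.14 in the wild-type liver and at 0.53 and -0.38 in the normal FEAT liver, and the outer probe was the brighter, with a signal of 3590 on the wild-type array.

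Net of its flanks, the segment of tumour 4 stood at 0.35, against 0.11, 0.11, 0.16, 0.086 and 0.14 in tumours 1, 2, 3, 5 and 6, 0.10 in the normal FEAT liver and 0.062 in the wild-type liver. All 8 arrays lay above 0, tumour 4 highest. The borders of the segment were fitted to the values of tumour 4, so its rank over these probes is not a test. Probes in the segment hold 35.0% G and C letters, against 36.2% in the flanks, with a median signal of 642 against 943. After correction for probe brightness (probes of like signal centred together) the net value of tumour 4 was 0.077, after correction for the GC of probes 0.29, and after correction for the GC of the surrounding DNA 0.28. No Cyp2c gene was called gained under any of these 3 corrections or with a penalty factor for segment borders of 4 in place of 2. In tumour 4, P450 genes gained then numbered 2 with the brightness correction, 1 with probe GC, 0 with the GC of the surroundings and 0 with the higher penalty. The 2 were Cyp3a41 and Cyp3a44, and the 1 was Cyp20a1.

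**Figure D3:**
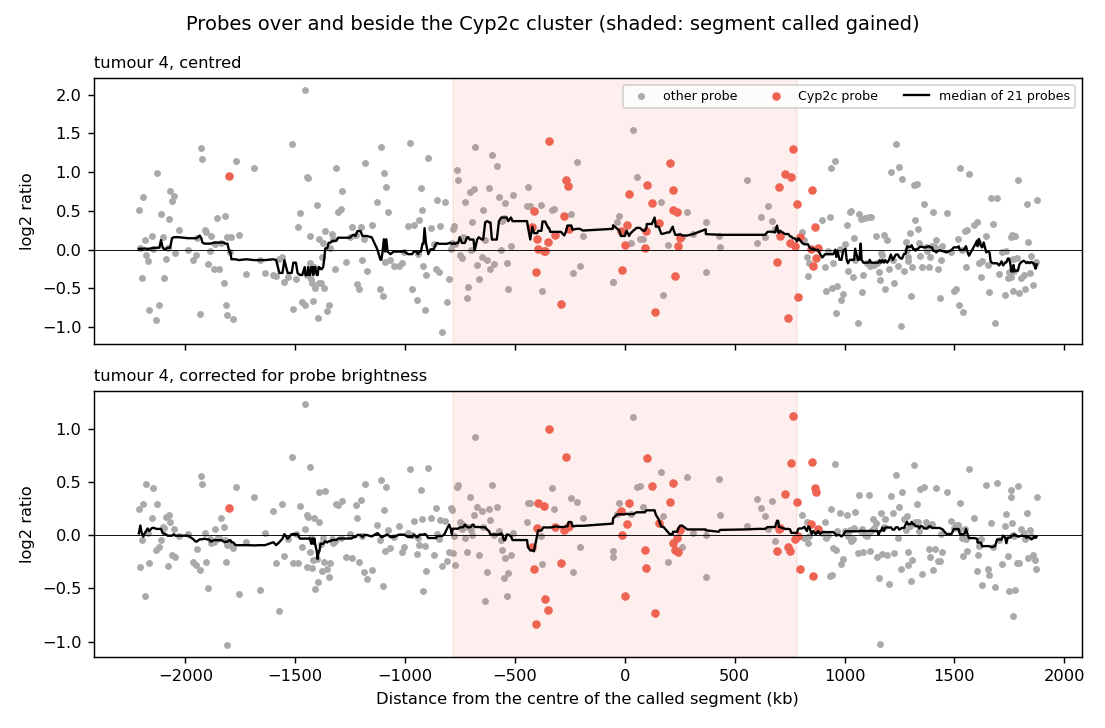
Log2 ratio of probes over and beside the Cyp2c cluster in tumour 4 against distance from the centre of the called segment (kb), as centred (upper panel) and corrected for probe brightness (lower panel); the shaded band is the segment and the line a running median of 21 probes. In the upper panel the line lies above 0 across the band, where the mean is 0.29; in the lower panel the mean is 0.088.

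The 4 Cyp2d genes of chromosome 15, the subfamily of the human debrisoquine hydroxylase, lay below their flanks on all 8 arrays (8 probes, chr15:82455850-82878657). Net values were -0.12, -0.024, -0.11, -0.29, -0.22 and -0.18 in tumours 1 to 6, -0.18 in normal FEAT liver and -0.10 in wild-type liver, with a tumour mean of -0.16 ± 0.091 (SD, n = 6). Tumours lay on both sides of the non-tumour livers, and the difference was -0.014 (exact permutation p = 0.786, adjusted p = 1). Cyp2d9, expressed more in male than in female mouse liver, contributed -0.53, -0.14, -0.21, -0.61, -0.30 and -0.44 in tumours 1 to 6, -0.32 in normal FEAT liver and -0.16 in wild-type liver, and Cyp2d26 -0.25, -0.18, -0.52, -0.45, -0.24 and -0.24 in tumours 1 to 6, -0.25 in normal FEAT liver and -0.14 in wild-type liver. One Cyp2d26 probe was the sole P450 probe found in the promoter window of its own gene (250 bases before to 50 after the start) among 78 P450 promoters of the RefSeq table for GRCm38.p6.

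The 4 remaining clusters had differences between tumours and non-tumour livers of at most 0.032 in size. Cyp3a on chromosome 5 (5 genes, 22 probes, chr5:144467952-145000956), which holds the main drug-metabolising P450 of mouse liver, Cyp3a11, had net values of 0.015, 0.032, -0.004, 0.021, 0.017 and 0.005 in tumours 1 to 6, 0.012 in normal FEAT liver and 0.022 in wild-type liver. This was the tightest cluster, with a tumour mean of 0.015 ± 0.013 (SD, n = 6) and a difference of -0.002 (exact permutation p = 0.786). The fatty acid hydroxylases Cyp4a10, Cyp4a12 and Cyp4a14 with Cyp4b1 and Cyp4x1 on chromosome 4 (12 probes, chr4:114489457-115022769) had 0.042, 0.036, 0.19, 0.12, 0.081 and 0.045 in tumours 1 to 6, 0.066 in normal FEAT liver and 0.12 in wild-type liver, above 0 on all 8 arrays, with a difference of -0.006 (exact permutation p = 1).

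Cyp4f on chromosome 17 (4 genes, 16 probes, chr17:30741440-31149884), which inactivates leukotrienes, had 0.080, 0.052, -0.052, -0.061, 0.002 and -0.11 in tumours 1 to 6, -0.047 in normal FEAT liver and -0.044 in wild-type liver. The 10 Cyp2a, Cyp2b, Cyp2f, Cyp2g and Cyp2s genes of chromosome 7 (34 probes, chr7:22576787-24052465) had 0.088, 0.029, -0.047, -0.067, -0.008 and -0.087 in tumours 1 to 6, -0.061 in normal FEAT liver and 0.024 in wild-type liver. In both, tumours lay on both sides of the non-tumour livers, with differences of 0.032 and 0.003 (exact permutation p = 0.714 and 0.964).

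A correction that centres probes of like brightness on each array (50 classes of signal on the wild-type array, chosen after the data were seen) moved whole clusters. Cyp2c then had net values of 0.003, 0.038, 0.003, 0.056, -0.033 and -0.059 in tumours 1 to 6, -0.024 in normal FEAT liver and -0.015 in wild-type liver, tumour 4 still highest but near 0. Cyp3a had 0.059, 0.069, 0.057, 0.20, 0.078 and 0.14 in tumours 1 to 6, 0.10 in normal FEAT liver and 0.034 in wild-type liver, above 0 on all 8 arrays. Cyp2d had -0.14, -0.051, -0.14, -0.25, -0.23 and -0.18 in tumours 1 to 6, -0.13 in normal FEAT liver and -0.13 in wild-type liver and stayed below 0 on all 8. Cyp2j had 0.023, 0.030, 0.032, 0.038, 0.094 and 0.079 in tumours 1 to 6, -0.002 in normal FEAT liver and -0.015 in wild-type liver, and all 6 tumours stayed above both non-tumour livers.

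Genes within a cluster were uneven. In the Cyp2c cluster, tumour means ran from -0.018 ± 0.045 (SD, n = 6) for Cyp2c70, which makes bile acids of the mouse type, to 0.12 ± 0.090 (SD, n = 6) for Cyp2c29, a main Cyp2c gene of mouse liver, with Cyp2c54 at 0.077 ± 0.085 (SD, n = 6). On chromosome 7, Cyp2b10 had -0.18 ± 0.10 (SD, n = 6) and Cyp2b19, an epidermal gene, -0.25 ± 0.073 (SD, n = 6), both below 0 on all 8 arrays. Between them lies Cyp2b9 at 0.20 ± 0.14 (SD, n = 6), and Cyp2b13, with 11 probes, at 0.035 ± 0.10 (SD, n = 6). In the Cyp4f cluster, Cyp4f14 at 0.38 ± 0.12 (SD, n = 6) lay next to Cyp4f13 at -0.21 ± 0.10 (SD, n = 6). Both non-tumour livers lay below 0 for Cyp2b10, Cyp2b19 and Cyp4f13 and above 0 for Cyp4f14. The contrasted genes also differed in median probe signal on the wild-type array. It was 2606 for Cyp2b10 and 2081 for Cyp2b19 against 1208 for Cyp2b9, and 1973 for Cyp4f13 against 584 for Cyp4f14. Whether brightness underlies these contrasts was not tested.

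Gene by gene, no P450 gene passed the test of tumours against non-tumour livers. The limma fit over 24431 genes called 0 of the 67 at an adjusted p of 0.05, whether on net values (0.0% of all genes called) or on levels (0.0%). At an unadjusted p under 0.05, limma had 4 P450 genes by net value (5.97%, against 3.03% of all genes): Cyp26a1 and Cyp1a1 higher and Cyp3a16 and Cyp4a14 lower in tumours. By level it had 3 (4.48%, against 2.36%), the same without Cyp1a1. The median net difference over the 67 genes was 0.02, against 0.01 over all genes tested, and the median size of the difference 0.069 against 0.0645. In simulated data of this comparison, 16% of genes shifted by 0.3 and 98% of those shifted by 1 were recovered. Noise was drawn independently for each gene, and 50 genes were shifted at each size, up to 2, in the same run. Many true shifts ease the adjusted threshold, so these rates can overstate recovery in the real fit. Shifted genes had at least 2 probes, so the rates do not cover genes with 1 probe.

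Cyp26a1 clears retinoic acid and has a single probe here. Its net values were 0.56, 0.36, 0.38, 0.97, 0.24 and -0.004 in tumours 1 to 6, -0.13 in normal FEAT liver and -0.25 in wild-type liver. All 6 tumours lay above both non-tumour livers, tumour 6 least, with a mean of 0.42 ± 0.33 (SD, n = 6) and a difference of 0.61 ± 0.21 (SE; limma adjusted p = 1). After the brightness correction, values were 0.30, 0.14, -0.025, 0.27, 0.051 and -0.39 in tumours 1 to 6, -0.46 in normal FEAT liver and -0.42 in wild-type liver. All 6 tumours stayed above both non-tumour livers, with values spread over both sides of 0.

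Cyp1a1, induced through the aryl hydrocarbon receptor, had net values of 0.68, 0.22, -0.012, 0.75, 0.29 and 0.26 in tumours 1 to 6, 0.062 in normal FEAT liver and -0.066 in wild-type liver. Tumours 1 and 4 stood highest, and tumour 3 overlapped the non-tumour livers (difference 0.37 ± 0.17 SE; limma adjusted p = 1). Its last probe had no value in tumour 3 or in either non-tumour liver, but read 0.26 to 1.03 in the others. From the 2 probes measured on all arrays the net values were 0.48, 0.19, 0.22, 0.67, 0.36 and 0.33 in tumours 1 to 6, -0.048 in normal FEAT liver and -0.072 in wild-type liver, which no longer overlapped, and the difference was 0.44 (limma adjusted p = 1). With the brightness correction, over all 4 probes, they were 0.48, 0.017, -0.29, 0.16, 0.14 and -0.036 in tumours 1 to 6, -0.14 in normal FEAT liver and -0.18 in wild-type liver, with tumour 3 lowest of all. The next gene, Cyp1a2, which answers to the same receptor, had 0.054, -0.11, -0.14, -0.31, -0.043 and -0.021 in tumours 1 to 6, -0.11 in normal FEAT liver and -0.034 in wild-type liver, with no gap between the groups.

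Cyp3a16, a Cyp3a gene of fetal liver, read lower in all 6 tumours than in both non-tumour livers, at 0.18, 0.18, -0.054, 0.15, 0.15 and 0.23 in tumours 1 to 6, 0.27 in normal FEAT liver and 0.50 in wild-type liver (difference -0.25 ± 0.1 SE; limma adjusted p = 1). The wild-type value rested on the last of its 3 probes, which read 0.21, 0.16, -0.023, 0.46, 0.29 and 0.56 in tumours 1 to 6, 0.50 in normal FEAT liver and 1.20 in wild-type liver. The first probe read -0.17 to 0.070 over the 8 arrays. With the median of its probes the difference was -0.089.

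Cyp4a14 is a target of PPARα, the receptor for fatty acids. It had -0.066, -0.19, 0.17, 0.15, -0.13 and -0.088 in tumours 1 to 6, 0.16 in normal FEAT liver and 0.33 in wild-type liver, where 5 of 6 tumours lay below both non-tumour livers (difference -0.27 ± 0.12 SE; limma adjusted p = 1). Cyp4a10 beside it, a target of the same receptor, had 0.23, 0.38, 0.44, 0.11, 0.55 and 0.50 in tumours 1 to 6, 0.027 in normal FEAT liver and 0.21 in wild-type liver, and 5 of 6 tumours lay above both (difference 0.25 ± 0.13 SE; limma adjusted p = 1). These neighbours on chromosome 4 leaned in opposite directions. The dimmer Cyp4a10 probe (signal 242) ranged from 0.31 to 1.15 over the 8 arrays and the brighter one (signal 2926) from -0.65 to 0.025.

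Counts of genes whose tumour and non-tumour values did not overlap were small. Among the 58 genes with at least 2 probes, net values of all tumours lay above both non-tumour livers for 1, Cyp3a25 (1.72%, against 3.69% of all genes), and below both for 2, Cyp2s1 and Cyp3a16 (3.45%, against 1.21%). By level, 3 lay above, Cyp2c55, Cyp2d22 and Cyp3a25 (5.17%, against 3.29%), and the same 2 below (3.45%, against 1.28%). Cyp3a25, which has 8 probes, had -0.005, -0.017, 0.034, -0.004, -0.029 and -0.023 in tumours 1 to 6, -0.088 in normal FEAT liver and -0.054 in wild-type liver, a gap of hundredths. Cyp2s1, a P450 of epithelia, had -0.030, -0.050, -0.034, -0.18, -0.15 and -0.24 in tumours 1 to 6, -0.003 in normal FEAT liver and 0.012 in wild-type liver (difference -0.12 ± 0.082 SE; limma adjusted p = 1).

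Livers of all 7 FEAT mice were set against the wild-type liver to see what the transgenic line shared. By limma, 0 of the 67 P450 genes passed, against 0.0205% of all genes, and 2 had an unadjusted p under 0.05 (2.99%, against 6.11%). The lone wild-type array is assumed to vary like the others. All 7 FEAT livers lay above the wild-type liver for 10 of the 58 genes with at least 2 probes (17.2%, against 16.4%) and below it for 8 (13.8%, against 15.1%), shares close to those of all genes.

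Cyp4f14, the leukotriene hydroxylase of mouse liver, was one of the 2. Its net values were 0.39, 0.54, 0.26, 0.52, 0.27 and 0.32 in tumours 1 to 6, 0.52 in normal FEAT liver and 0.040 in wild-type liver, all 7 FEAT livers above the wild-type one (difference 0.36 ± 0.13 SE; limma adjusted p = 0.769). The last of its 3 probes carried most of it, at 0.81, 0.76, 0.77, 0.89, 0.54 and 0.38 in tumours 1 to 6, 0.60 in normal FEAT liver and -0.27 in wild-type liver. The first probe read -0.19, 0.13, -0.098, 0.45, 0.24 and 0.056 in tumours 1 to 6, -0.15 in normal FEAT liver and 0.14 in wild-type liver, with the wild-type liver among the FEAT livers. After the brightness correction the gene stood at 0.22, 0.42, 0.080, 0.18, 0.17 and 0.13 in tumours 1 to 6, 0.32 in normal FEAT liver and -0.031 in wild-type liver, and all FEAT livers still lay above the wild-type liver. Cyp3a16 was the other, lower in all 7 FEAT livers (difference -0.34 ± 0.12 SE; limma adjusted p = 0.768). The 4 genes with larger differences than Cyp4f14 had larger errors and an adjusted p of 0.778 by limma. They were the steroid enzyme Cyp17a1 (0.68 ± 0.34 SE), with 6 of 7 FEAT livers above, Cyp26a1 (0.59 ± 0.31 SE), with 7 of 7 above, Cyp1a1 (0.39 ± 0.23 SE), with 7 of 7 above, and Cyp2a4 (-0.38 ± 0.23 SE), with 7 of 7 below.

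**Figure D4:**
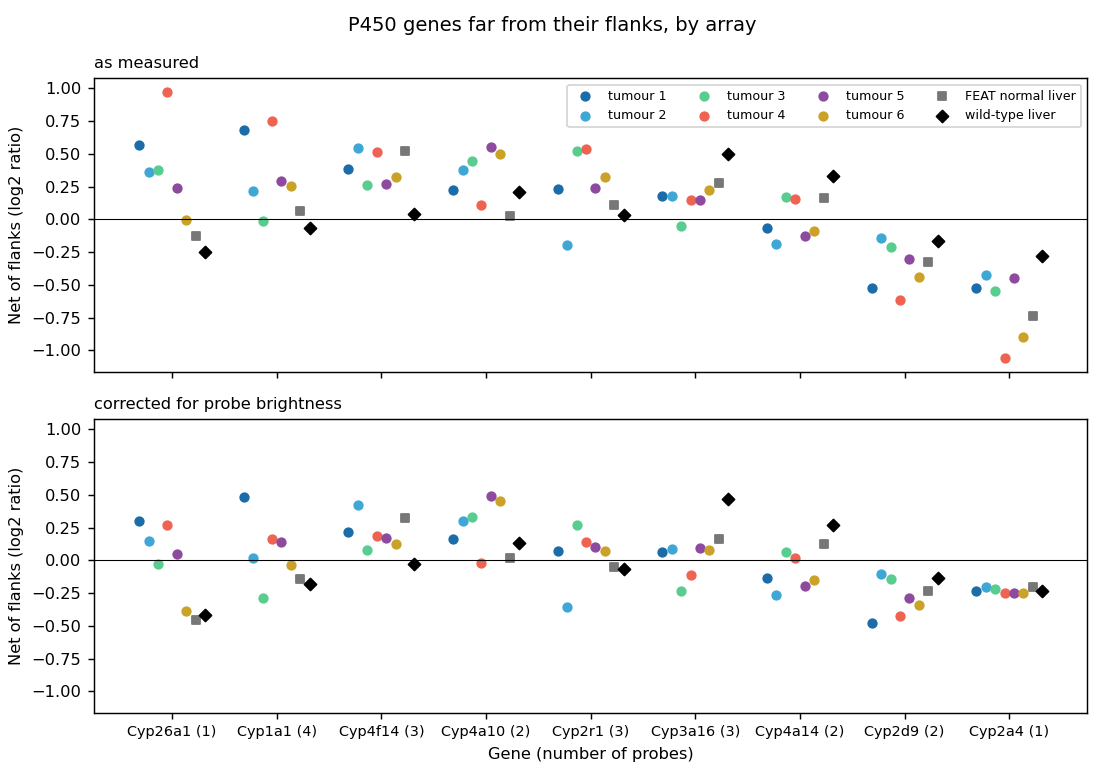
Net value (log2 ratio) of 9 P450 genes on all 8 arrays, as measured (upper panel) and corrected for probe brightness (lower panel), with the number of probes in brackets: circles are tumours 1 to 6, squares the normal FEAT liver, diamonds the wild-type liver. Cyp2a4 spreads from -1.06 to -0.28 in the upper panel and from -0.25 to -0.20 in the lower one.

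Departures of single genes from their flanks were compared with those of all genes. Net values at or beyond 0.5 in either direction were reached on at least 1 array by 10 of the 58 genes with at least 2 probes (17.2%, against 11.4%): Cyp1a1, Cyp2d26, Cyp2d9, Cyp2e1, Cyp2j13, Cyp2r1, Cyp4a10, Cyp4a12, Cyp4f14 and Cyp4v3. Tumour 4, the array with the highest noise, had 7 of them (12.1%, against 6.87%), tumour 3 had 3 (5.17%, against 2.32%), and tumours 1, 2, 5 and 6 had 2, 1, 1 and 0 (against 1.04%, 0.563%, 0.551% and 2.06%). The normal FEAT liver had 1 (1.72%, against 2.19%) and the wild-type liver 0 (against 0.684%). After the brightness correction, 1 of the 58 genes reached 0.5 on any array, Cyp3a41 in tumour 4 (1.72%, against 1.07%). On the other arrays 0 did, against 0.945%, 0.388%, 0.769%, 0.412% and 0.678% of all genes in tumours 1, 2, 3, 5 and 6, 1.2% in the normal FEAT liver and 0.503% in the wild-type liver.

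Many P450 genes kept 1 sign on every array, the wild-type one included. Net values were above 0 on all 8 arrays for 9 genes (15.5%, against 13.9% of all genes) and below 0 on all 8 for 7 (12.1%, against 10.2%). The former were Cyp26b1, Cyp27a1, Cyp2c66, Cyp2g1, Cyp2j13, Cyp2j5, Cyp4a10, Cyp4f14 and Cyp4v3. The latter were Cyp19a1, Cyp2b10, Cyp2b19, Cyp2d26, Cyp2d9, Cyp2j11 and Cyp4f13. The labels give every array a reference of the same age, and the shares are close to those of all genes. The 2 sets also differed in probe signal on the wild-type array. Median signal ran from 1528 (Cyp2d9) to 2606 (Cyp2b10) in the genes below 0. It ran from 277 (Cyp2j13) to 1584 (Cyp4a10) in those above 0. Whether brightness or the reference underlies the constant signs was not tested.

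Cyp2a4, with 1 probe and so outside these counts, also lay below its flanks on every array, and its probe is the brightest of all P450 probes (signal 13378 on the wild-type array). Its net values were -0.53, -0.43, -0.55, -1.06, -0.45 and -0.90 in tumours 1 to 6, -0.74 in normal FEAT liver and -0.28 in wild-type liver. The testosterone hydroxylase Cyp2a4 is a near copy of the coumarin hydroxylase Cyp2a5, whose probe lies beside it and read 0.005, -0.12, -0.28, -0.30, -0.15 and -0.18 in tumours 1 to 6, -0.095 in normal FEAT liver and -0.12 in wild-type liver. After the brightness correction Cyp2a4 stood at -0.23, -0.21, -0.22, -0.25, -0.25 and -0.25 in tumours 1 to 6, -0.20 in normal FEAT liver and -0.23 in wild-type liver, a narrow band below 0 on every array.

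Brightness ran through the P450 probes as it did through the array. All autosomal probes were divided by signal into 3 classes of equal size. The 106 P450 probes in the dimmest class (median signal 361) had median log2 ratios of 0.29, 0.14, 0.28, 0.47, 0.19 and 0.24 in tumours 1 to 6, 0.20 in normal FEAT liver and 0.12 in wild-type liver. The 89 in the brightest class (median signal 2320) had medians of -0.14, -0.12, -0.18, -0.43, -0.12 and -0.28 in tumours 1 to 6, -0.25 in normal FEAT liver and -0.072 in wild-type liver, below 0 on all 8 arrays. Over all probes the dimmest class had medians of 0.13 to 0.48 in tumours, 0.24 in the normal FEAT liver and 0.10 in the wild-type liver, and the brightest -0.41 to -0.11, -0.26 and -0.048. After correction the medians of the dim P450 probes were -0.068 to 0.11 in tumours. Brightness was read from the wild-type array, the one scanner file used here, so that on that array signal and ratio share their measurement.

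**Figure D5:**
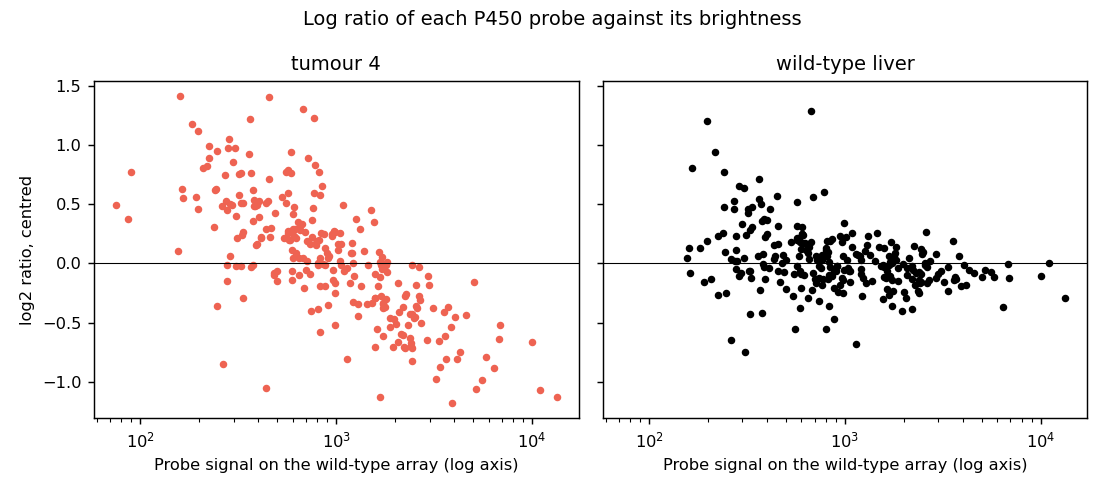
Centred log2 ratio of the P450 probes against their signal on the wild-type array (log axis, arbitrary fluorescence units), in tumour 4 and in the wild-type liver; each point is 1 probe. The dimmest of 3 classes had a median of 0.47 in tumour 4 and 0.12 in the wild-type liver, and the brightest -0.43 and -0.072.

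No P450 gene of bile acid and cholesterol metabolism passed the test of net values (limma adjusted p = 1). Cyp7a1, the rate-limiting enzyme of bile acid synthesis, had 0.26, 0.25, 0.004, 0.17, 0.15 and 0.20 in tumours 1 to 6, -0.022 in normal FEAT liver and 0.24 in wild-type liver. Cyp7b1, measured by 22 probes, had 0.080, 0.069, 0.037, -0.060, 0.017 and 0.026 in tumours 1 to 6, -0.019 in normal FEAT liver and 0.036 in wild-type liver, the narrowest range among these genes, and Cyp27a1 had 0.13, 0.046, 0.23, 0.27, 0.037 and 0.11 in tumours 1 to 6, 0.13 in normal FEAT liver and 0.11 in wild-type liver. Tumour and non-tumour values overlapped in all 3. Cyp8b1, with 1 probe, had 0.42, 0.16, -0.29, 0.38, 0.28 and 0.17 in tumours 1 to 6, 0.25 in normal FEAT liver and 0.42 in wild-type liver. Cyp39a1, an oxysterol enzyme measured by 11 probes, ranged from -0.017 to 0.13 in tumours, beside 0.029 and 0.11 in the normal livers of the FEAT and the wild-type mouse. Cyp51, which makes cholesterol from lanosterol, ranged from -0.093 to 0.27, beside 0.035 and 0.042, and Cyp46a1 from -0.27 to 0.10, beside -0.32 and -0.002.

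Among the drug-metabolising genes outside those described, Cyp3a11 had -0.014, 0.053, 0.071, -0.082, 0.073 and -0.061 in tumours 1 to 6, 0.008 in normal FEAT liver and -0.097 in wild-type liver. Cyp2e1 had 0.063, -0.014, 0.18, 0.65, -0.098 and -0.039 in tumours 1 to 6, 0.15 in normal FEAT liver and 0.22 in wild-type liver, where tumour 4 stood apart. There its first probe (signal 183) read 1.18 and its second (signal 1462) -0.011. Cyp2r1 likewise ranged from -0.19 to 0.54 in tumours, and the last of its 3 probes alone (signal 160.0) from -0.49 to 1.41. Cyp1b1 ranged from -0.14 to 0.21, Cyp2b10 from -0.37 to -0.089, Cyp2c29 from -0.052 to 0.19 and Cyp2d22 from -0.077 to 0.21 in tumours. None passed the test (limma adjusted p = 1). The steroid gene Cyp17a1, with 1 probe, had 0.11, 0.064, 0.27, -0.81, 0.065 and 0.52 in tumours 1 to 6, 0.056 in normal FEAT liver and -0.64 in wild-type liver, in which tumour 4 and the wild-type liver lay far below the rest. Cyp19a1 ranged from -0.30 to -0.024 in tumours, beside -0.24 and -0.017.

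None of the P450 partner genes on a chosen list passed the test either. The list holds the P450 genes Tbxas1 and Ptgis, the electron donors such as Por, heme genes such as Alas1, and receptors such as Ahr, Nr1i2, Nr1i3 and Ppara. All 22 names were found as 21 genes on the array, and limma called 0 by net value, with 1 at an unadjusted p under 0.05 (3.03% of all genes), Ppara, higher in tumours (net difference 0.14 ± 0.05 SE; limma adjusted p = 1). The clustered conjugating families gave 0 calls by the same test: 14 Ugt genes (2 at an unadjusted p under 0.05, against 3.03% of all genes), 17 Gst genes (0), 10 Sult genes (1) and 6 Ces genes (0). Their median sizes of difference were 0.09, 0.07, 0.061 and 0.079, against 0.069 for the P450 genes.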

How the data were processed

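Copy number was measured on 2-colour Agilent 244A arrays, test DNA in Cy3 and reference DNA in Cy5, 1 array for each of 8 mice, in the groups the labels give. Per the file headers, signal intensity came from Agilent Feature Extraction 9.1.3.1 (protocol CGH-v4_91), background-subtracted and dye-normalised, with 0 or 1 flags for poor spots; the series' design text names CGH analytics 3.4. The deposited values are log2 ratios. On the wild-type array, the one with a scanner file here, they equalled the log10 ratios deposited by the authors, sign turned and changed to log2, plus a constant of 0.0014 (216148 probes, 100.0% within 0.001), so higher means more test DNA. On the other 7 arrays this direction rests on the dyes in the labels.

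Arrays were centred on the autosomal median, spots of 1 probe averaged, and probes of 1 gene averaged. No loess or quantile step was used. A value that 1 array repeated at over 100 spots was set to missing, a choice made after the data were seen: -0.053 at 6809 spots of the normal FEAT liver (11 P450 probes) and -0.039 at 305 spots of tumour 3 (1 P450 probe). Segments came from penalised least squares (penalty factor 2, at least 5 probes). Genes were tested with limma 3.58.1 in R 4.3.3 (trend on probes per gene, Benjamini-Hochberg over 24431 genes) and clusters with exact permutation over arrays. Adjusted p-values under 0.05 counted as passing. On simulated data limma recovered, for tumours against non-tumour livers, 68% of genes shifted by 0.5, and for FEAT against wild-type livers 42%. These rates carry the limits of the simulation given above. The number of arrays limits the precision.

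Named are all clusters, the 5 genes at each end of both net comparisons with at least 2 probes, those at or beyond 0.5 on an array, and 22 liver P450 genes, of which 21 were found. Some of these are given by counts and ranges only. Genes named outside this rule, such as Cyp3a25, Cyp2s1 and the partners in segments, were chosen after their values were seen. Members and lists were chosen with earlier results of these data known. Of 67 array names, 64 are current RefSeq symbols (GRCm38.p6) and 3 are older ones: Cyp2c44, Cyp3a41 and Cyp4a12.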

Additional observations from a re-analysis of the deposited data

Results flagged for a closer look

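Among the 6 tumours, 1 tumour stood apart from the other 5 in 6 of the 40 sets of P450 values examined (Dixon's gap criterion). For independent sets chosen without regard to their values, chance gives about 2.0. Some genes here, Cyp3a16 among them, were named for their values in these same data, and genes can share a cluster. The count is therefore not read as an excess, and no share over all genes stands beside it. Cyp17a1 had a net value of -0.81 in tumour 4, against a tumour median of 0.085. Cyp2e1 had 0.65 in tumour 4, against 0.024. Cyp1b1, which oxidises estrogens and aryl hydrocarbons, had 0.21 in tumour 5, against -0.074. Cyp2c29 had -0.052 in tumour 6, against 0.15. In tumour 3, Cyp3a16 had -0.054, against 0.16, and Cyp8b1 had -0.29, against 0.22. Cyp17a1 and Cyp8b1 have 1 probe each.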

How the results depend on the processing

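No P450 gene passed limma at an adjusted p of 0.05 under any of the 19, 18 and 18 settings run for the net, level and FEAT comparisons (lowest adjusted p = 0.517), nor any cluster the exact permutation test (lowest adjusted p = 0.25). With both non-tumour livers in the fit, no gene of any kind passed by net value or by level under any setting. With 1 of these livers left out, some genes outside the P450 set passed by net value. Such a fit leaves 1 liver in a group and is not read further. The cluster test had little room to pass. With all 8 arrays its smallest possible p is 0.036, so a lone cluster among 7 could not pass. With 1 non-tumour liver left out the splits were fewer, and no cluster could pass whatever its values. The absence of passing clusters therefore says little about how stable they are. No paired analysis was possible because each array came from a different mouse. Alternative values for named genes were taken from the net comparison of tumours with non-tumour livers, not from the FEAT comparison. Of 582 such values, 34 changed sign, in 16 genes, and 17 genes had no change of sign. The causes were not tested.

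The cluster differences between tumours and non-tumour livers changed sign as follows. With the median of probes, Cyp2j gave -0.04, Cyp3a 0.006 and the chromosome 7 cluster -0.023. With 50 flanking probes on each side, Cyp4a/b/x gave 0.01, Cyp2d 0.012 and Cyp4f -0.014, and with 200 Cyp2d gave 0.006. Cyp3a gave 0.005 with the probe GC correction, 0.034 with the brightness correction and 0.010 over probes measured on all arrays. Leaving out 1 array at a time gave 0.059 to 0.072 for Cyp2j, -0.032 to 0.02 for Cyp4a/b/x, -0.007 to 0.003 for Cyp3a, -0.039 to 0.045 for chromosome 7, -0.054 to 0.027 for Cyp2d, 0.013 to 0.05 for Cyp4f and 0.035 to 0.094 for Cyp2c.

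The values for genes that follow are net differences between tumours and non-tumour livers, also for genes named in the FEAT comparison. The brightness correction gave Cyp19a1 0.011, Cyp27a1 -0.02, Cyp2a5 0.047, Cyp2b10 0.01, Cyp39a1 -0.03, Cyp51 -0.007, Cyp7a1 -0.016 and Cyp7b1 -0.038. Cyp27a1 gave -0.006 with 50 flanking probes. Cyp39a1 gave -0.006 with 200, -0.02 with the median of probes and -0.004 with repeated values kept. Cyp4f14 gave -0.07 with the median of probes, and Cyp2j5 -0.028 over probes measured on all arrays. Leaving out 1 array at a time gave -0.021 to 0.67 for Cyp17a1, -0.13 to 0.086 for Cyp19a1, -0.062 to 0.021 for Cyp1a2, -0.005 to 0.041 for Cyp27a1, -0.17 to 0.036 for Cyp2b19, -0.064 to 0.20 for Cyp2j5 and -0.036 to 0.044 for Cyp39a1. It gave -0.001 to 0.10 for Cyp3a11, -0.36 to -0.14 for Cyp3a16, -0.084 to 0.24 for Cyp46a1, -0.08 to 0.25 for Cyp4a12, -0.14 to 0.34 for Cyp4f14, -0.016 to 0.056 for Cyp51, -0.062 to 0.20 for Cyp7a1 and -0.007 to 0.047 for Cyp7b1.

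Counts of P450 genes called in segments are given here with the share of all genes called. The 17 losses of tumour 5 numbered 17 under both other penalties, both GC corrections, the brightness correction and centring on the mode (13.6% to 13.9%), but 1 at a threshold of 0.3 (1.4%). At 0.3, tumour 1 had 0 gained (1.99%) and 0 lost (0.116%), tumour 4 had 0 gained (0.0722%) and tumour 5 had 1 gained (4.79%). At 0.1, tumour 1 had 12 lost (13.9%), tumour 4 had 2 lost (3.83%) and 10 gained (19.6%), and tumour 5 had 24 gained (23.3%). With a penalty factor of 1, tumour 1 had 6 lost (10.1%), tumour 5 had 6 gained (12.6%), tumour 6 had 1 gained (0.417%) and the normal FEAT liver had 1 lost (0.786%). With a factor of 4, tumour 4 had 0 gained (0.822%) and tumour 5 had 9 (12.4%). The probe GC correction gave 1 gained in tumour 4 (4.36%) and 9 in tumour 5 (12.4%), the window GC correction 0 (2.23%) and 9 (12.4%), and the brightness correction 2 (2.11%) and 8 (10.9%), with 6 lost in tumour 1 (11.6%). Centring on the mode gave 10 gained in tumour 4 (17.7%) and 11 in tumour 5 (16.3%), and left 1 lost in tumour 1 (3.24%, against 10.3% with the median). Without a value were 3 to 13 of the 272 P450 probes on an array, and 11 of the 13, in the normal FEAT liver, were repeated values set to missing.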
